A study of Mus musculus with 6 samples.

Results

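The genes described here are 45 genes that build and control mitosis and chromosome segregation, measured in mouse embryonic stem cells that lack Hoxd12, a homeobox transcription factor, and in wild-type cells. They were taken by name from a list covering mitotic entry, the spindle, the checkpoint, kinetochores, the chromosomal passenger complex, anaphase, cytokinesis and chromosome structure. All 45 names were found among the 55450 genes listed in the files, and all 45 passed the filter on low counts, which left 12891 genes to be tested. The study compared 3 libraries of Hoxd12-/- cells with 3 libraries of wild-type cells. Both groups are labelled C57BL6 embryonic stem cells with the developmental stage E3.5 embryo, were grown in mES+2i medium and were sequenced with a stranded mRNA kit from total RNA. The 2i in that name is a pair of kinase inhibitors that keeps embryonic stem cells in the naive state. Whether the libraries of a group come from separate cultures or from more than 1 knockout clone is not given in the labels, so the p-values rest on differences among the libraries of a group, and these may be technical only.

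Mitotic genes are switched on late in the cell cycle. The kinase Cdk1 with its cyclins drives the cell into mitosis, the spindle checkpoint holds the cell until every kinetochore is attached, and the anaphase-promoting complex then marks securin and cyclin B for destruction so that sister chromatids can part. Embryonic stem cells divide quickly and keep this set of genes at a high level. In bulk RNA, fewer cells in mitosis and less RNA per cell cannot be told apart.

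Library totals lay between 5412577 and 6280934 expected counts. On these totals, 3 counts of a gene corresponded to 0.478 to 0.554 CPM, that is, counts scaled to the size of the library, a limit that covers counting error only. Hoxd12 had 0 counts in all 6 libraries, so the genotype could not be checked by its transcript. All 8 embryonic stem cell markers were above 1 TPM, a level scaled for transcript length and library size, with a summed level of 12305 to 12558 TPM in the knockout and 11044 to 11611 TPM in the wild-type libraries. Most of this sum was Dppa5a, at 10190 to 10295 TPM in the knockout and 8993 to 9544 TPM in the wild-type libraries. Zfp42, Tdgf1 and Klf4 were also higher in all knockout libraries, and Pou5f1, Sox2 and Esrrb overlapped. Nanog was lower, at 199 to 225 TPM in the knockout and 239 to 286 TPM in the wild-type libraries. The 8 fibroblast markers summed to 3.56 to 7.77 TPM in the knockout and 7.55 to 11.5 TPM in the wild-type libraries, with Dcn, Col3a1, Postn and Lum at 0 in all. The 8 markers of differentiated embryonic cells summed to 5.30 to 6.56 TPM in the knockout and 5.08 to 6.05 TPM in the wild-type libraries. Whether these differences in marker sums have a part in the results was not tested.

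Of the 45 mitotic genes, 11 rose and 7 fell in the knockout libraries by edgeR's quasi-likelihood test at a Benjamini-Hochberg adjusted p below 0.05, and 27 were not called. These counts are 24.4% and 15.6% of the genes. Among all genes tested, 12.1% were called higher and 14.4% were called lower. The mitotic set therefore held about the share of lower calls found everywhere, and its share of higher calls was above that of all genes. The median log2 fold change of the 45 genes was 0.06, beside 0.02 over all genes tested, and 30 of the 45 had a positive value. Apart from Pttg1, which fell by 1.35 on the log2 scale, the fold changes were small, from -0.31 for Kif20a to 0.37 for Hmgb2. The knockout and wild-type libraries did not overlap for 24 of the 45 genes, and for 39.7% of all genes tested. All genes tested include genes with few counts, whose errors are larger, and they were not matched to the members by level. How far level has a part in these shares was not tested.

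Calls were spread unevenly over the roles. The 3 anaphase genes all fell, 3 of 5 checkpoint genes and 4 of 7 chromosome structure genes rose, and none of the 5 kinetochore genes was called. The median log2 fold change was -0.30 for the anaphase genes, 0.22 for the checkpoint genes, 0.25 for the chromosome structure genes and 0.18 for the cytokinesis genes. It was 0.05 for mitotic entry, 0.04 for spindle kinases and spindle assembly, 0.04 for kinetochores and -0.07 for the chromosomal passenger complex. These groups hold 3 to 8 genes each, and no test was made between them. Members and roles were chosen with earlier results of these data known, so the spread over roles is a description only. Fold changes also moved with transcript length across all genes, and the lengths by role are given below. The groups include genes on chromosomes 6, 8 and 11, described below, where many genes were called in 1 direction. Outside those chromosomes, the called checkpoint genes were Bub1 and Ttk, and the called chromosome structure genes Smc4 and Mki67. The called anaphase genes there were Ube2c and Cdc20, and no gene of the chromosomal passenger complex was called.

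**Figure D1:**
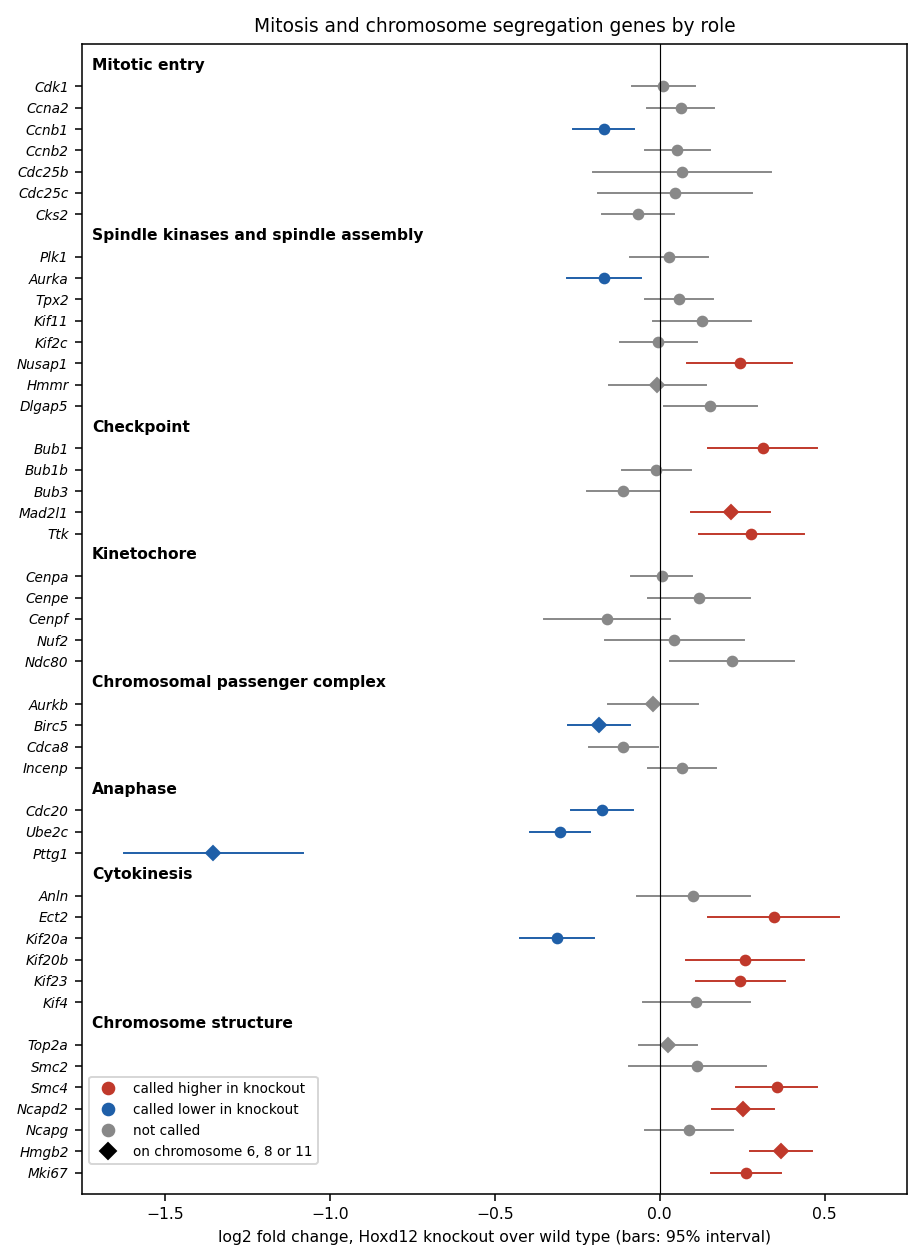
The fitted log2 fold change of each of the 45 genes, Hoxd12 knockout over wild type, is plotted on the horizontal axis with its 95% interval, and the genes are grouped by role. The 11 genes called higher and the 7 called lower are coloured, diamonds mark genes on chromosomes 6, 8 and 11, and Pttg1 lies far to the left of all others.

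The summed level of the 45 genes was 5390, 5339 and 5382 CPM in the knockout and 5228, 5223 and 5188 CPM in the wild-type libraries. The knockout libraries were all above the wild-type libraries, by a ratio of 1.03. Abundant genes weigh most in such a sum. Hmgb2, on chromosome 8, had a mean of 438.1 CPM in the knockout and 339.7 CPM in the wild-type libraries. Ncapd2, on chromosome 6, had means of 406.6 and 341.3 CPM. With 11 of the 45 genes called higher and 7 lower, the sum does not show a rise of the whole set. The median deviation of the 45 genes from their group mean stayed between -0.014 and 0.009 on the log2 scale, and 18 to 25 of the 45 lay above the group mean in each library.

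Per transcript length, the most abundant members were Cenpa at 292 TPM, Hmgb2 at 266 TPM, Top2a at 264 TPM and Ncapd2 at 263 TPM, as means over the 6 libraries. Cks2, Ube2c and Birc5 followed at 222, 218 and 211 TPM. The least abundant were Ect2 at 8.06 TPM, Cdc25b at 6.38 TPM, Cenpf at 6.06 TPM and Smc2 at 5.79 TPM. Neighbours in this order often lie within the spread of their libraries, as Hmgb2, Top2a and Ncapd2 do. The order also depends on the deposited lengths, taken as given, such as 1687 bases for Top2a and 1420 bases for Ncapd2.

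**Figure D2:**
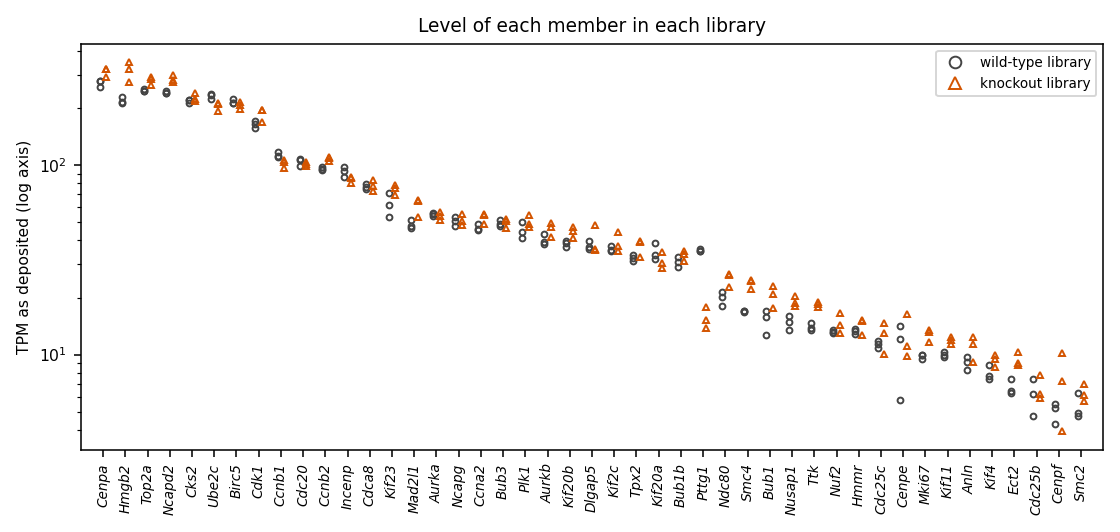
The deposited TPM of each of the 45 genes is shown on a log axis for each library, with circles for wild-type and triangles for knockout libraries and the genes ordered by their mean. Levels run from 292 TPM for Cenpa to 5.79 TPM for Smc2, and the knockout triangles of Pttg1 stand apart below its wild-type circles.

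The members share promoter sequence features that were not used to choose them. Promoters of late cell cycle genes are known for CCAAT boxes, bound by the factor NF-Y, and for the cell cycle genes homology region (CHR), bound by the MuvB complexes. RefSeq promoter windows of 250 bases before to 50 bases after the start site (GRCm38.p6) were found for 37 of the 45 genes, as 39 windows. The letters CCAAT, on either strand, were in 30 of these 39 windows, 76.9%, beside 37.4% of all 32851 windows. The CHR letters TTTGAA or TTTAAA, on either strand, were in 32 windows, 82.1%, beside 27.6% of all. Both CCAAT and CHR letters stood in 27 windows, 69.2%, beside 10.7% of all, and 2 or more CCAAT matches in 22, 56.4%, beside 11.7% of all. Genes of both directions held them: CCAAT and CHR letters together were in 7 of 11 windows of genes that rose, 4 of 6 of genes that fell and 16 of 22 of the rest. These are counts of windows, not of genes. Ect2, which rose, and Bub3, of the rest, each count more than once with overlapping windows. Smc4, which rose, and Kif20a, which fell, had no window. For 5 of the 39 windows, of Pttg1, Kif4, Bub3, Kif2c and Cdca8, the RefSeq start lies over 250 bases downstream of the GENCODE 5′ end. In the other 34 windows, a split made after seeing the data, CCAAT stood in 27, 79.4%, CHR letters in 28, 82.4%, and both in 24, 70.6%. Letter matches are a description and do not show that a factor is bound.

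Stretches of 4 such promoters are printed to show the layout, 2 of genes that fell (Ube2c, Cdc20) and 2 of genes that rose (Hmgb2, Mki67). They are given 5′ to 3′ on the strand of the gene and end before both the RefSeq and the GENCODE start. Capitals mark CCAAT or its complement ATTGG, and TTTGAA or its complement TTCAAA. The 219 bases of Ube2c are chr2:164769679-164769897 on the plus strand, the 241 bases of Cdc20 are chr4:118437353-118437593 on the minus strand, the 250 bases of Hmgb2 are chr8:57511593-57511842 on the plus strand, and the 250 bases of Mki67 are chr7:135716380-135716629 on the minus strand.
Ube2c: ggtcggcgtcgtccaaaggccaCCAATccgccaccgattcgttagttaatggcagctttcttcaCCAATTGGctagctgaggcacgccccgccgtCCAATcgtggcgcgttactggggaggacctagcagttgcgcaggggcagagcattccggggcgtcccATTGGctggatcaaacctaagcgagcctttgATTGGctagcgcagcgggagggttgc
Cdc20: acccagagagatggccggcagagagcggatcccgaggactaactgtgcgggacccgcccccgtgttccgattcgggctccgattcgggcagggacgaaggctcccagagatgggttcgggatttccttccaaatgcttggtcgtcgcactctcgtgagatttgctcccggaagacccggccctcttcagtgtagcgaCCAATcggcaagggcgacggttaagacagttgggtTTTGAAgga
Hmgb2: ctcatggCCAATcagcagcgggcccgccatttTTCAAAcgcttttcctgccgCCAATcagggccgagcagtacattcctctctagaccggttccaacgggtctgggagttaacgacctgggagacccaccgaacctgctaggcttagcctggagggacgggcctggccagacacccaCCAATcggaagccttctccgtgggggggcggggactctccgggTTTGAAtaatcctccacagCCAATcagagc
Mki67: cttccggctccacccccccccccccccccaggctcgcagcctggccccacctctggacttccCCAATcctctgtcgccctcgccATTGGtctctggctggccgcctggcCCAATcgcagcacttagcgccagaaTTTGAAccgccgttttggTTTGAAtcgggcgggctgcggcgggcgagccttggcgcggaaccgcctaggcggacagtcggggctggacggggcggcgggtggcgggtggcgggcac
Ube2c held 6 CCAAT matches, a pair of them overlapping on opposite strands in CCAATTGG. Its TTTGAA match, 29 bases before the RefSeq start, lies past the printed stretch. Cdc20 had a CCAAT match that begins 53 bases before its RefSeq start and a TTTGAA match at 18 bases, and another CCAAT match at 8 bases lies past the printed stretch. Hmgb2 had CCAAT matches on the plus strand at 243, 198, 73 and 11 bases before the start, and TTTGAA matches at 218 and 30 bases. In Mki67, 3 CCAAT matches were followed by a pair of TTTGAA matches at 116 and 98 bases. Pttg1 had none of these letters in its window, which starts inside the GENCODE gene model because the RefSeq start lies 270 bases downstream of the GENCODE 5′ end.

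Among the 7 genes of mitotic entry, 1 fell and none rose. Ccnb1 (ENSMUSG00000041431, chr13:100778650-100786570) encodes cyclin B1, the main partner of Cdk1 at the start of mitosis. Ccnb1 had 179.6, 175.8 and 185.7 CPM in the knockout libraries and 198.6, 199.7 and 210.7 CPM in the wild-type libraries. All knockout libraries were below all wild-type libraries. The mean of 180.4 ± 4.95 CPM against 203 ± 6.72 CPM (SD, n = 3 each) gave a log2 fold change of -0.17 ± 0.05 (SE), with an edgeR adjusted p of 0.00544. With limma on TPM the call was lost (adjusted p = 0.157), and leaving out wild-type replicate 3 took its adjusted p to 0.0514. Cdk1, the kinase itself, was at 211.3, 190 and 199.4 CPM in the knockout and 201, 201.3 and 194 CPM in the wild-type libraries, which overlap. Its log2 fold change was 0.01, with a 95% interval of -0.08 to 0.11. The cyclin genes Ccna2 and Ccnb2 were at 0.06 and 0.05, the Cdk1-activating phosphatase genes Cdc25b and Cdc25c at 0.07 and 0.05, and Cks2, which encodes a Cdk-binding subunit, at -0.07, none of them called.

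Among the 8 genes of spindle kinases and spindle assembly, 1 rose and 1 fell. Aurka (ENSMUSG00000027496, chr2:172356190-172370535) encodes Aurora A, the kinase of spindle poles. Aurka had 96.4, 99.5 and 97.3 CPM in the knockout and 109.7, 108.5 and 111.4 CPM in the wild-type libraries. These groups do not overlap, and they are tight around 97.7 ± 1.59 and 109.8 ± 1.46 CPM. Its log2 fold change was -0.17 ± 0.05, with an edgeR adjusted p of 0.0202. This was 1 of the least stable calls, lost in 7 of 17 alternatives. Among these were DESeq2 (adjusted p = 0.115), the length offset (adjusted p = 0.119), limma on TPM (adjusted p = 0.787) and the fits without knockout replicate 1 (adjusted p = 0.0723), knockout replicate 3 (adjusted p = 0.0543) or wild-type replicate 3 (adjusted p = 0.0725). Nusap1 (ENSMUSG00000027306, chr2:119618298-119651244) encodes a protein that binds spindle microtubules near chromosomes. Nusap1 had 61.3, 58 and 53.9 CPM in the knockout and 51.2, 49.8 and 45.4 CPM in the wild-type libraries. The lowest knockout library stood just above the highest wild-type library. Nusap1 rose by 0.24 ± 0.08 on the log2 scale (adjusted p = 0.0194). The Nusap1 call was lost with DESeq2 (adjusted p = 0.129), with the length and GC correction (adjusted p = 0.129), without knockout replicate 1 (adjusted p = 0.115) and when wild-type replicate 3 was left out (adjusted p = 0.116).

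The other 6 spindle genes were not called. Plk1, the polo-like kinase gene, had a log2 fold change of 0.03 with a 95% interval of -0.09 to 0.15. Tpx2, whose product activates Aurora A, was at 0.06. Kif11, the gene of the motor that pushes spindle poles apart, was at 0.13, and its knockout libraries lay above its wild-type libraries. Kif2c, which encodes a microtubule-depolymerizing kinesin, was at -0.004 and Hmmr, which encodes a spindle-associated protein, at -0.007. Dlgap5, the gene of a protein that stabilizes kinetochore fibres, was at 0.15 with an adjusted p of 0.105. Dlgap5 was called higher only when knockout replicate 1 was left out (log2 fold change 0.21, adjusted p = 0.0465).

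Of the checkpoint genes, 3 of 5 were called higher and none lower. Among the called genes, Mad2l1 lies on chromosome 6, where many genes were called higher. Bub1 (ENSMUSG00000027379, chr2:127801122-127831865) encodes a kinase that recruits checkpoint proteins to kinetochores. Bub1 had 71.7, 65.4 and 76.2 CPM in the knockout and 63, 60.1 and 49.2 CPM in the wild-type libraries. The groups do not overlap, though wild-type replicate 3 is well below its 2 companions. The log2 fold change of Bub1 was 0.31 ± 0.08 (adjusted p = 0.00474). Without that library, the Bub1 change was 0.21 with an adjusted p of 0.0629, and on TPM with limma its adjusted p was 0.0699. Mad2l1 (ENSMUSG00000029910, chr6:66535390-66547220) encodes Mad2, the inhibitor that holds Cdc20. Mad2l1 had 110.9, 99.5 and 107.8 CPM in the knockout and 94.7, 89.2 and 90.6 CPM in the wild-type libraries, without overlap. It rose by 0.22 ± 0.06 on the log2 scale (adjusted p = 0.00593), and its call was lost with DESeq2 (adjusted p = 0.0646) and without knockout replicate 1 (adjusted p = 0.0536). Ttk (ENSMUSG00000038379, chr9:83834689-83872389) encodes Mps1, the kinase that starts checkpoint signalling. Ttk had 53.3, 55.4 and 52.3 CPM in the knockout and 43, 42.7 and 47.1 CPM in the wild-type libraries. The knockout libraries lay above, by 0.28 ± 0.08 on the log2 scale (adjusted p = 0.00744). The Ttk call was lost with DESeq2 (adjusted p = 0.0725) and with the length and GC correction (adjusted p = 0.0596). Bub1b, the gene of the checkpoint protein BubR1, was at -0.01 and Bub3, the gene of its binding partner, at -0.11, neither called. With the length and GC correction Bub3 was called lower (-0.16, adjusted p = 0.0220).

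None of the 5 kinetochore genes was called. Cenpa (ENSMUSG00000029177, chr5:30666777-30674830), the gene of the centromeric histone H3 variant, was the most abundant. Cenpa had 274.8, 276.4 and 260.5 CPM in the knockout and 254.8, 279.3 and 273.6 CPM in the wild-type libraries. The groups overlap almost fully, and the log2 fold change was 0.006 with a 95% interval of -0.09 to 0.10 (adjusted p = 0.935). Cenpa was called higher on TPM with limma (0.20, adjusted p = 0.0496) and with the length and GC correction (0.13, adjusted p = 0.0150). Cenpe, the gene of a kinetochore motor, was at 0.12. Ndc80 and Nuf2 encode partners in the complex that grips microtubule ends. Ndc80 had a log2 fold change of 0.22 with an adjusted p of 0.0764 and groups that do not overlap, and Nuf2 was at 0.04. Cenpf, which encodes a large kinetochore-associated protein, was at -0.16 on counts and at 0.36 on TPM, so its direction depends on the length used. The deposited effective length of Cenpf averaged 5560 ± 1905 bases in the knockout and 7363 ± 1025 bases in the wild-type libraries.

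In the chromosomal passenger complex, which corrects wrong attachments and guides cytokinesis, 1 of 4 genes fell. Birc5 (ENSMUSG00000017716, chr11:117849251-117855743) encodes survivin, the subunit that targets the complex to centromeres. Birc5 had 187.8, 187.2 and 176.3 CPM in the knockout and 201.4, 217.3 and 207.6 CPM in the wild-type libraries. The groups do not overlap, and the log2 fold change was -0.19 ± 0.05 (adjusted p = 0.0028). The Birc5 call was lost on TPM with limma (adjusted p = 0.479) and with the length and GC correction (adjusted p = 0.113). Aurkb, the kinase gene of the complex, was at -0.02, with a 95% interval of -0.16 to 0.11. Cdca8, the borealin gene, was at -0.11 and Incenp, the scaffold gene, at 0.07. Incenp turned negative with the length offset (-0.25, adjusted p = 0.0268). The deposited effective length of Incenp was 1528 ± 155 bases in the knockout and 1213 ± 66.8 bases in the wild-type libraries.

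The 3 genes of anaphase all fell, and they hold the largest change of the set. Pttg1 (ENSMUSG00000020415, chr11:43420250-43426251) encodes securin, which keeps separase inactive until anaphase. Pttg1 had 69, 53 and 58 expected counts in the knockout and 136, 167 and 149 in the wild-type libraries. In scaled values these are 11, 10.02 and 8.93 CPM in the knockout and 23.8, 27.2 and 25.6 CPM in the wild-type libraries. All knockout libraries are far below all wild-type libraries. The level fell from 25.5 ± 1.73 to 10 ± 1.06 CPM, a fold of 0.391 and a log2 fold change of -1.35 ± 0.13, with an edgeR adjusted p of 1.6e-09. Pttg1 stayed called lower in all 16 alternatives, with log2 fold changes of -1.44 to -1.14 and a largest adjusted p of 0.000289. Over all genes tested its fold change ranked 100 from the lowest, and 89 of the 1861 genes called lower had a value at or below it.

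Ube2c (ENSMUSG00000001403, chr2:164769898-164778822) encodes the ubiquitin-conjugating enzyme that starts chains for the anaphase-promoting complex. Ube2c had 183.9, 181.5 and 177.2 CPM in the knockout and 221.4, 229.8 and 218.1 CPM in the wild-type libraries. The gap between the groups is wider than the range within either. Ube2c fell by 0.30 ± 0.04 on the log2 scale (adjusted p = 2.87e-06), and on TPM with limma its adjusted p was 0.0562. Cdc20 (ENSMUSG00000006398, chr4:118432901-118437352) encodes the activator of the same complex. Cdc20 had 174.3, 180.9 and 169.8 CPM in the knockout and 198.4, 203.3 and 190.3 CPM in the wild-type libraries. The groups do not overlap, and Cdc20 fell by 0.17 ± 0.05 (adjusted p = 0.00493). The Cdc20 call was lost on TPM with limma (adjusted p = 0.677) and with the length offset (adjusted p = 0.0655).

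Cytokinesis genes moved in both directions, with 3 of 6 called higher and 1 lower. Ect2 (ENSMUSG00000027699, chr3:27097222-27153878) encodes the exchange factor that activates RhoA at the cleavage plane. Ect2 had 40.3, 38 and 34.8 CPM in the knockout and 32.5, 27.7 and 28.9 CPM in the wild-type libraries, without overlap. Ect2 rose by 0.35 ± 0.10 on the log2 scale (adjusted p = 0.00789). The call was lost with DESeq2 (adjusted p = 0.0640), without knockout replicate 1 (adjusted p = 0.0621) and when wild-type replicate 2 was left out (adjusted p = 0.0516). Kif23 (ENSMUSG00000032254, chr9:61915905-61946774) encodes the motor subunit of centralspindlin, the midzone complex that binds Ect2. Kif23 had 81.8, 79.2 and 76.4 CPM in the knockout and 66.7, 63.2 and 70.5 CPM in the wild-type libraries. All knockout libraries were higher, by 0.24 ± 0.07 (adjusted p = 0.00558). The Kif23 call was lost with DESeq2 (adjusted p = 0.0603), with the length offset (adjusted p = 0.211) and on TPM with limma (adjusted p = 0.110).

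Kif20a and Kif20b encode related kinesins of the spindle midzone, and they moved in opposite directions. Kif20a (ENSMUSG00000003779, chr18:34624613-34633277) had 105.8, 110 and 116.8 CPM in the knockout and 146.9, 134.4 and 132 CPM in the wild-type libraries. The groups do not overlap, and Kif20a fell by 0.31 ± 0.06 (adjusted p = 5.14e-05). On TPM with limma the Kif20a call was lost (adjusted p = 0.362). Kif20b (ENSMUSG00000024795, chr19:34922361-34975745) had 41.5, 40.8 and 43.7 CPM in the knockout and 33.7, 37.9 and 33.7 CPM in the wild-type libraries. Kif20b rose by 0.26 ± 0.09 (adjusted p = 0.0267). This was the least stable call of the set, lost in 8 of 17 alternatives with adjusted p up to 0.564 for the length offset. Those were DESeq2 (adjusted p = 0.162), the length offset, both TPM scales (adjusted p = 0.115 for each) and the fits of Kif20b without knockout replicate 1 (0.0651), knockout replicate 3 (0.110), wild-type replicate 1 (0.0937) or wild-type replicate 3 (0.109), each an adjusted p. Anln, which encodes the actin-binding protein anillin, was at 0.10 and Kif4, the gene of a chromosome-bound kinesin, at 0.11, neither called.

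Chromosome structure genes leaned upward, with 4 of 7 genes called higher, none lower and all 7 values positive. Of the called genes, Hmgb2 lies on chromosome 8 and Ncapd2 on chromosome 6, where many genes were called higher. Smc4 (ENSMUSG00000034349, chr3:69004738-69034623) encodes a core subunit shared by both condensin complexes. Smc4 had 95.4, 92.6 and 96.8 CPM in the knockout and 73.2, 74.4 and 75.3 CPM in the wild-type libraries. The groups lie far apart against their spread of 2.13 and 1.06 CPM (SD, n = 3 each), and Smc4 rose by 0.35 ± 0.06 (adjusted p = 2.81e-05). Its ATPase partner gene Smc2 had 33.3, 33.5 and 36.8 CPM in the knockout and 36.8, 28.8 and 30.3 CPM in the wild-type libraries. Those groups overlap, at a log2 fold change of 0.11 with a 95% interval of -0.09 to 0.32. Ncapd2 (ENSMUSG00000038252, chr6:125168007-125191701) encodes a regulatory subunit of condensin I. Ncapd2 had 387.2, 404 and 428.6 CPM in the knockout and 338.3, 334.4 and 351.3 CPM in the wild-type libraries. All knockout libraries were higher, and Ncapd2 rose by 0.25 ± 0.05 (adjusted p = 7.66e-05), with an adjusted p of 0.0614 under the length offset. Ncapg, the gene of another condensin I subunit, was at 0.09 and not called.

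Hmgb2 (ENSMUSG00000054717, chr8:57511907-57515999) encodes a chromatin protein that bends DNA. Hmgb2 had 441, 437.9 and 435.5 CPM in the knockout and 358, 321.2 and 339.8 CPM in the wild-type libraries. The lowest knockout library was far above the highest wild-type library. Hmgb2 rose by 0.37 ± 0.05 (adjusted p = 1.64e-07), the highest value of the 45. Mki67 (ENSMUSG00000031004, chr7:135689784-135716361) encodes Ki-67, the proliferation marker that coats mitotic chromosomes. Mki67 had 140.7, 132 and 132.5 CPM in the knockout and 112.3, 109.9 and 115.8 CPM in the wild-type libraries. The groups do not overlap, and Mki67 rose by 0.26 ± 0.05 (adjusted p = 0.000241). Top2a, the gene of the enzyme that untangles sister chromatids, had 455.4, 460.2 and 454.7 CPM in the knockout and 443.4, 457.3 and 447.1 CPM in the wild-type libraries. Top2a was at 0.02, with a 95% interval of -0.06 to 0.11, and was called higher only on TPM with limma (0.18, adjusted p = 0.0461). Of the 18 called genes, Pttg1, Hmgb2, Smc4 and Mki67 kept their call in every alternative run.

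**Figure D3:**
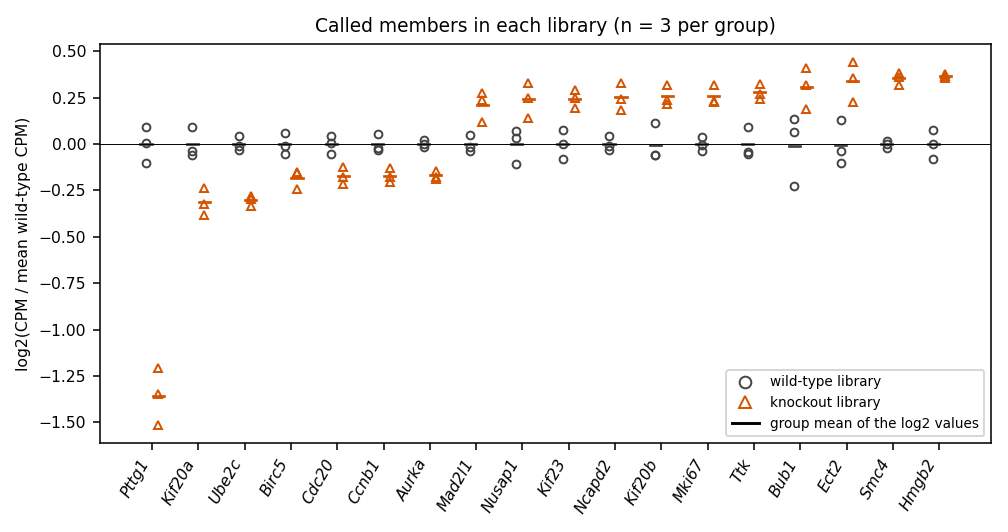
Each called gene is shown by its CPM in each library on a log2 scale relative to the wild-type mean, with circles for wild-type libraries, triangles for knockout libraries and short bars for the group means (n = 3 per group). Triangles and circles are separate for all 18 genes, by the widest margin for Pttg1.

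Many genes of chromosomes 6, 8 and 11 were called in 1 direction, so the members were also described without them. On chromosome 6, 183 of 600 genes tested were called higher and 47 lower, with a median log2 fold change of 0.16. On chromosome 8 it was 212 higher and 42 lower of 703, with a median of 0.17. On chromosome 11 only 34 of 1050 were higher and 293 were lower, with a median of -0.12. The 8 members there are Mad2l1 and Ncapd2 on chromosome 6, Hmgb2 on chromosome 8, and Hmmr, Aurkb, Birc5, Pttg1 and Top2a on chromosome 11. Of these 8, 3 rose and 2 fell, each called gene in the direction of its chromosome. How far the shift of the chromosome and a change of the gene itself contribute was not tested.

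Outside these chromosomes, 8 of 37 members rose and 5 fell, 21.6% and 13.5%. Among the 10538 genes tested there, 10.7% were called higher and 14% lower. The median of the 37 was 0.06 and that of all these genes 0.01. As with all 45, the share of higher calls was above that of all genes and the share of lower calls was not. Here too the genes were not matched to the members by level. The groups did not overlap for 19 of the 37, and for 3968 of the 10538 genes tested there. Leaving out wild-type replicate 3 gave 5 of the 37 higher and 3 lower, beside 7.53% and 11% of the genes tested there in that fit. With DESeq2 3 of the 37 were called higher, beside 4.51% of these genes. On log2(TPM + 1) with limma 0 were called lower, beside 5.79% of them.

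The neighbourhood of each member was described by the median log2 fold change of the other genes tested within 5 Mb. Around Hmgb2 it was 0.41 over 18 genes, of which 9 rose and none fell, so the neighbours of Hmgb2 were shifted as far as Hmgb2 was. It was 0.43 within 2 Mb and 0.32 within 10 Mb. Around Mad2l1 it was 0.20 over 17 genes and around Birc5 -0.21 over 155 genes, again close to the value of the gene itself. Ncapd2 had a neighbourhood median of 0.08 over 88 genes, below its own 0.25. Pttg1 lay in a region with a median of -0.08 over 16 genes, 1 of them called higher and 1 lower, and its own -1.35 was far from that. The 5 genes tested within 500 kb of Pttg1 were at -0.09 for Slu7, -0.15 for Ttc1, -0.06 for Ccnjl, 0.15 for Pwwp2a and -0.72 for 4933415A04Rik, and none of them was called. Smc4, Ube2c and Kif20a each had neighbours at 0.03, Mki67 at -0.004 and Bub1 at -0.02. Top2a was at 0.02 in a region at -0.14, where 64 of 203 genes were called lower and 6 higher.

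**Figure D4:**
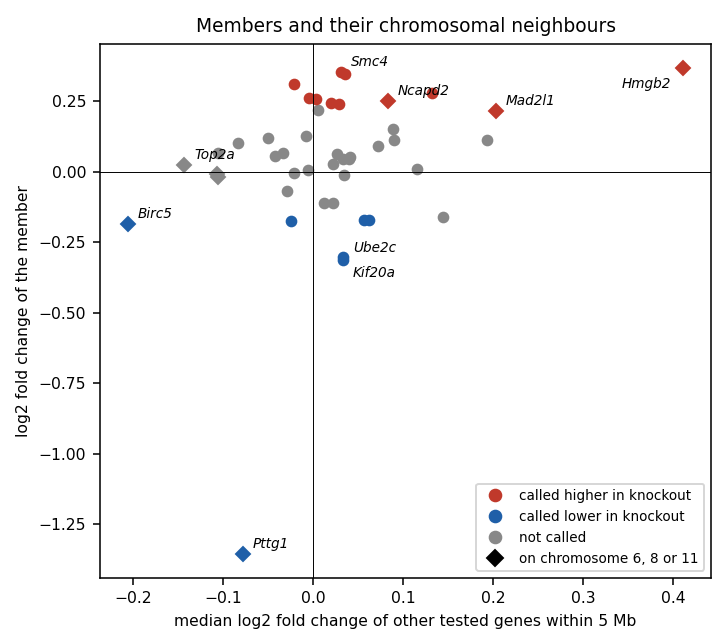
The log2 fold change of each of the 45 genes is plotted against the median log2 fold change of the other tested genes within 5 Mb, with diamonds for chromosomes 6, 8 and 11. Hmgb2 sits at the far right with neighbours at 0.41, Birc5 at the far left with neighbours at -0.21, and Pttg1 at the bottom with neighbours at -0.08.

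Fold changes moved with transcript length across all genes, and the members are given beside that. Over all genes tested, the median log2 fold change was -0.17 for deposited lengths under 1000 bases, where 33.8% were called lower and 5.50% higher. It was 0.11 for lengths of 6000 bases or more, where 15.7% were called higher and 4.71% lower. The members that rose had a median length of 2864 bases, those that fell 1744 bases and the rest 2199 bases. By role, the median was 968 bases for anaphase, 1566 for the chromosomal passenger complex, 1687 for chromosome structure and 1744 for mitotic entry. It was 2088 for kinetochores, 2864 for the checkpoint, 2892 for spindle kinases and spindle assembly and 3725 for cytokinesis. How far length has a part in the differences between roles was not tested. Of the 6 members with a deposited length under 1000 bases, 3 fell (Pttg1, Ube2c and Birc5) and 1 rose (Kif20b). The effective length of Kif20b ran from 739 bases in wild-type replicate 3 to 1049 bases in knockout replicate 3, so its length was not fixed. Spearman's rho between log2 fold change and length was 0.27 over the 45 members and 0.23 over all genes tested. With GC content it was -0.44 over the members and -0.11 over all. These correlations run over genes of the same 6 libraries, which are not independent replicates. After a correction of the counts for length and GC, an alternative chosen after seeing the data, 10 members were called higher and 7 lower, beside 11.6% and 12.9% of all genes. The rho over the members was then -0.06 with length and -0.30 with GC content, and over all genes it was -0.01 and -0.02.

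**Figure D5:**
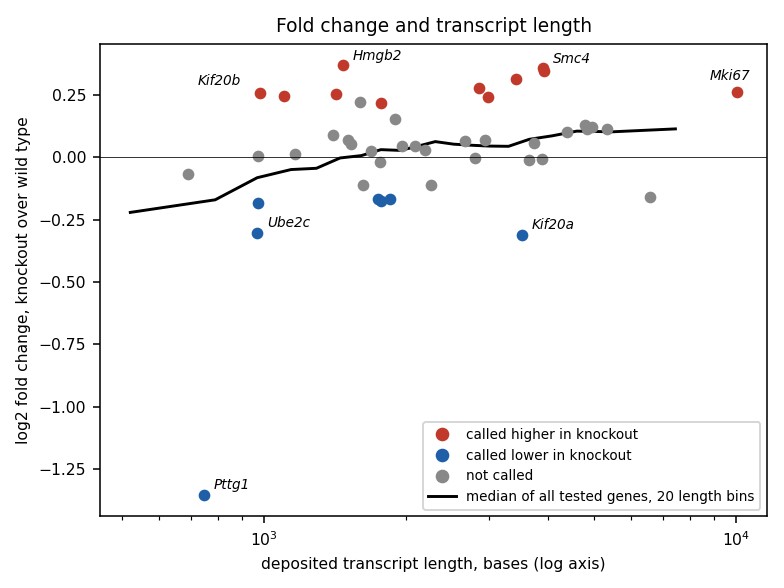
The log2 fold change of each of the 45 genes is plotted against its deposited transcript length on a log axis, with the line giving the median of all tested genes in 20 length bins. The line climbs from short to long genes, Pttg1 at 748 bases lies far below it, and Mki67 at 10061 bases and Hmgb2 lie above it.

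Calls differed with the test and with the unit. With DESeq2 on the same counts, 5 members were called higher and 6 lower, where 5.44% of all genes were higher and 9.98% lower. With limma on log2(TPM + 1), 10 members were called higher and 1 lower, where 8.59% of all genes were higher and 5.81% lower. Pttg1 was the 1 gene that stayed lower on that scale, at -1.14. The TPM scale moved the median of all genes to 0.10 with a pseudocount of 1 and to 0.11 with 0.1, and the median of the members to 0.17 and 0.18. The summed TPM of the members was 3474, 3199 and 3540 in the knockout and 3160, 3123 and 3083 in the wild-type libraries, a ratio of 1.09.

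Sequence sharing limits some values. Hmgb2 has 5 processed pseudogenes with at least 95% identity over at least 200 bases, and 4 of them carried counts. The summed copies were at 377 ± 12.2 CPM in the knockout and 268 ± 11.5 CPM in the wild-type libraries (SD, n = 3 each). Hmgb2 and its copies together were at 815 ± 12.9 CPM against 607 ± 29.6 CPM, a log2 ratio of 0.42. Among the copies, Gm4739 was called higher at 0.52 (edgeR adjusted p = 4.14e-10) and Gm13237 at 0.43 (adjusted p = 2.58e-06), so how reads are split between Hmgb2 and its copies is uncertain, while all of these values are positive. Cks2 has 3 such copies, and 1 of them, Gm15452, carried counts. Gm15452 was at 8.62 ± 3.51 CPM in the knockout and 8.45 ± 2.59 CPM in the wild-type libraries. Cks2 and its copies together had a log2 ratio of -0.06. Near-identical copies of Ccnb1, Cdc20 and Mad2l1 had 0 counts. Genes on the opposite strand overlap Kif20a (Cdc23), Nusap1 (Oip5), Cdc20 (Elovl1), Ccna2 (Exosc9), Kif4 (Pdzd11), Ncapg (Lcorl) and Cdca8 (9930104L06Rik). Oip5 was itself called higher, at 0.36. Whether counting used strand is not given in the sources used here, so reads from such pairs could not be told apart with certainty.

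Further genes of the same pathways were taken from 8 lists of 135 genes in all, each of which passed the count filter. Of the 135, 27 were called higher and 13 lower, 20% and 9.63%, beside 12.1% and 14.4% of all genes. Their median log2 fold change was 0.08. The median deposited length of the 135 genes was 2229 bases, beside 2213 over all genes tested. By list it ran from 1521 bases for the anaphase-promoting complex and its regulators to 3366 bases for cohesin. Among 20 transcriptional regulators of mitotic genes, 2 rose and 1 fell, with a median of 0.007. Foxm1, the activator of late cell cycle genes, rose by 0.35 ± 0.07 (adjusted p = 0.000409) from 62.6 to 79.4 CPM. It lies on chromosome 6. E2f4, a member of the E2F family found in repressive complexes, rose by 0.18 (adjusted p = 0.00561) on chromosome 8, and Trp53, the p53 gene, fell by 0.15 (adjusted p = 0.0127) on chromosome 11. Each of these 3 moved in the direction of its chromosome.

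Of 12 further regulators of mitotic entry, 3 rose and 2 fell. Arpp19, whose product inhibits the phosphatase that opposes Cdk1, fell by 0.41 (adjusted p = 8.55e-07). Bora, which encodes a cofactor for the activation of Plk1, rose by 0.39 (adjusted p = 0.0018), and the phosphatase gene Cdc14b rose by 0.82 (adjusted p = 0.00297) from 5.03 to 8.86 CPM. Of 18 genes of the anaphase-promoting complex and its regulators, 3 rose and 5 fell, with a median of 0.009. Anapc11, the catalytic RING subunit gene, fell by 0.35 (adjusted p = 2.06e-06) on chromosome 11, the direction of that chromosome. Ube2s, the gene of the enzyme that extends ubiquitin chains after Ube2c has started them, fell by 0.29 (adjusted p = 1.92e-05). The subunit gene Cdc16 on chromosome 8 rose by 0.33 (adjusted p = 0.000119).

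Cohesin, the ring that holds sister chromatids together, had 5 of 16 genes called higher and none lower, with a median of 0.14. The core subunit genes Smc1a and Smc3 rose by 0.34 (adjusted p = 7.95e-06) and 0.30 (adjusted p = 0.000726), and Pds5a, a regulator gene, by 0.30 (adjusted p = 0.00171). Of 4 other condensin genes, Ncapd3, of condensin II, rose by 0.37 (adjusted p = 0.0193) and 3 were not called. Among 18 genes of the outer kinetochore and checkpoint, 3 rose and 2 fell, with a median of 0.14. Pmf1, a Mis12 complex gene, fell by 0.32 (adjusted p = 1.48e-05), and Kntc1, which encodes a subunit of the complex that brings dynein to kinetochores, rose by 0.41 (adjusted p = 0.000377). Spc25, of the Ndc80 complex, rose by 0.23 (adjusted p = 0.0231).

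Among 20 genes of the inner centromere and of CENP-A loading, 4 rose and 3 fell, with a median of 0.09. Hjurp, the chaperone gene for CENP-A, rose by 0.46 (adjusted p = 5.11e-06) from 69 to 95 CPM, while Cenpa itself was not called. Cenpx fell by 0.46 (adjusted p = 9.1e-06) on chromosome 11 and Cenpt rose by 0.28 (adjusted p = 0.00043) on chromosome 8. Of 27 spindle and midzone genes, 6 rose and none fell, with a median of 0.10. Kif15, the gene of a spindle kinesin, rose by 0.42 (adjusted p = 0.000309), Cep55, which encodes a protein of the midbody, by 0.45 (adjusted p = 0.000813), and Ckap5, the gene of a microtubule polymerase, by 0.26 (adjusted p = 0.00464).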

How the data were processed

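Poly(A) RNA was sequenced from 3 Hoxd12-/- and 3 wild-type libraries, grouped and numbered by their titles. The deposited file of a library gives, per the file headers, 2 lengths (full and effective), the expected count, the TPM and the FPKM of each gene. The expected counts in the deposited files are estimates per gene without any scaling for depth. TPM and FPKM were scaled by the authors for transcript length and depth, per the file headers; FPKM entered no test. Per the submitters' processing notes the aligner Bowtie 0.12.2 and 2 builds, mm8 and mm10, were named without their role. How genes were quantified, with which annotation and whether by strand, is not given in the sources used here. GENCODE M21 matched all 55450 gene identifiers and gave symbols and GRCm38 coordinates.

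Expected counts were rounded and fitted with edgeR 4.0.16 in R 4.3.3 (TMM, filterByExpr, robust quasi-likelihood test, group as the only term), and p-values were adjusted by Benjamini-Hochberg over all 12891 genes tested and called below 0.05. The biological coefficient of variation common to all genes was 6.74%. CPM uses TMM-scaled library sizes, apart from the level of 3 counts, which uses library totals without TMM scaling. Intervals are 95%. Members, roles and further lists were chosen with earlier results of these data known. Values in every library are given for each called member and, in a role without one, for the member with the highest TPM; those of Cdk1, Smc2 and Top2a were added after their values were seen. Of further lists, up to 3 called genes with the smallest p are named.

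Alternatives were DESeq2 1.42.0, limma 3.58.1 on TPM with a pseudocount of 1 or 0.1 before the log2, RLE scaling, no filter, 1 CPM in at least 3 libraries, a replicate block, a length offset, removal of the 20 most abundant genes or of chromosomes 6, 8 and 11, and each library left out. A length and GC correction was added after seeing the data. The fit was tested on simulated data, with changes set in 50 genes at each fold. It recovered 26% of them at a fold of 1.2, 56% at 1.5, 86% at 2 and 98% at 4. Of its calls there, 6.34% were false. The simulated set held 12677 genes, with changes in few of them. In the data, 1559 of the 12891 genes tested were called higher and 1861 lower. Recovery was not estimated for the mitotic genes at their own levels, so these percentages do not give the sensitivity for them. A gene that was not called can still have changed by a small fold.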

Additional observations from a re-analysis of the deposited data

How the results depend on the processing

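With DESeq2, 701 genes were higher, 5 of them members, 3 outside chromosomes 6, 8 and 11. On TPM with a pseudocount of 1 or 0.1, 749 or 738 genes were lower, 1 or 1 of them a member and 0 or 0 a member outside those chromosomes, and the median of members was 0.175 or 0.176 (0.174 or 0.176 outside them). With the length and GC correction the median outside them was 0.036. Leaving out each library in turn gave 1118 to 1423 genes higher and 1486 to 1787 lower, 8 to 11 higher and 5 to 7 lower members with a median of 0.043 to 0.071, and outside those chromosomes 5 to 8 higher and 3 to 5 lower with a median of 0.046 to 0.081. The replicate block gave 1513 genes higher and 1840 lower, 11 and 7 members and a median of 0.06. The deviations of same-numbered libraries had correlations of -0.005, 0.036 and 0.008, within the -0.041 to 0.038 of differently numbered libraries. No pairing by number was seen in these values, which does not show that same-numbered libraries were prepared apart.

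None of the 18 called members changed sign, while 20 of the others did in at least 1 alternative; the cause was not tested. With the length offset these were Kif2c 0.0053, Hmmr 0.0043, Dlgap5 -0.025, Bub1b 0.018, Cenpf 0.36, Aurkb 0.090, Incenp -0.25 and Ncapg -0.079. On log2(TPM + 1) or log2(TPM + 0.1) they were Cks2 0.051 or 0.051, Kif2c 0.10 or 0.11, Hmmr 0.10 or 0.11, Bub1b 0.12 or 0.12, Bub3 0.0078 or 0.0079, Cenpf 0.36 or 0.41, Aurkb 0.19 or 0.20, Cdca8 0.017 or 0.017 and Incenp -0.14 or -0.14. With the length and GC correction they were Ccna2 -0.0088, Cdc25c -0.0060, Cks2 0.079, Tpx2 -0.015, Nuf2 -0.016 and Top2a -0.024. With each library left out, the ranges that cross 0 were Cdk1 -0.029 to 0.047, Cdc25b -0.052 to 0.19, Cdc25c -0.048 to 0.14, Plk1 -0.022 to 0.081, Kif2c -0.067 to 0.030, Hmmr -0.034 to 0.028, Bub1b -0.039 to 0.018, Cenpa -0.034 to 0.036, Nuf2 -0.070 to 0.11 and Aurkb -0.061 to 0.036. On library totals without TMM scaling, 3 counts correspond to 0.478 to 0.554 CPM.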
